A study of Mus musculus with 16 samples.

Results

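The interleukin-1 and interleukin-36 cytokines, their natural antagonists and their receptors were followed across the 16 libraries of footpad epidermal cells. The 10 members were taken by gene symbol from the 50600 genes of the count table, and all 10 had at least 10 counts in total, the minimum for the test, which 22155 genes passed. Female C57/B6J mice received, from 5 wk of age and for 3 wk, either a purified diet that is poor in ligands of the aryl hydrocarbon receptor (AhR-poor diet) or that diet enriched to 200 ppm in the plant compound indole-3-carbinol, from which AhR ligands arise (I3C diet). Their footpads were injected with 50 μl of PBS as vehicle, to which 50 μg of the allergenic protease papain was added in the papain groups, and the epidermis was separated with dispase 6 hr later, with 4 mice in each of the 4 groups. All groups shared the strain, sex, age and injected volume. Mice of a diet lived in a common cage, so an effect of diet and an effect of cage cannot be told apart. The comparisons asked how the diet altered the genes with vehicle and with papain, how papain altered them on each diet, and whether the response to papain differed between diets.

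Interleukin-1α (Il1a) and interleukin-1β (Il1b) signal through a receptor made of Il1r1 and the accessory chain Il1rap. The receptor antagonist Il1rn occupies Il1r1 without signalling, and Il1r2 is a decoy that binds the ligands but lacks a signalling domain. The interleukin-36 agonists, Il1f6 (interleukin-36α), Il1f8 (interleukin-36β) and Il1f9 (interleukin-36γ), use the receptor Il1rl2 with the same accessory chain, and Il1f5 is their antagonist. In skin, keratinocytes hold interleukin-1α as an alarm signal released on damage, and interleukin-36γ is produced by stressed keratinocytes. Interleukin-1β is mostly a product of myeloid cells and is commonly cleaved by way of an inflammasome. In GRCm38, all 7 genes for ligands and antagonists lie on chromosome 2. Il1b (chr2:129364570-129371139) and Il1a (chr2:129299610-129309972) are neighbours on the minus strand, and the interleukin-36 genes and Il1rn lie on the plus strand between 24153161 (start of Il1f8) and 24351494 (end of Il1rn). The receptor genes Il1r2 (chr1:40074079-40125231) and Il1r1 (chr1:40225080-40317257) adjoin on chromosome 1, and Il1rap is on chromosome 16 (chr16:26581704-26730117).

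The library totals ran from 22500821 to 51844375 counts. Levels are CPM values, in which counts are brought to a common library total with TMM factors, and 3 counts, taken as the limit of detection, corresponded to 0.0569 to 0.130 CPM, which covers counting error only. A gene was called differentially expressed at a Benjamini-Hochberg adjusted p below 0.01 in the quasi-likelihood test of edgeR over all 22155 genes, together with a log2 fold change beyond 1 in either direction. The material was epidermal by its markers, since 10 keratinocyte genes such as Krt5, Krt14 and Krt10 held between 3.84% and 6.38% of the normalised counts of each library. Markers of other cells were not the same in all groups. The summed CPM of 10 neutrophil markers was 0.517 to 0.991 with vehicle on the I3C diet, 2.23 to 2.91 with vehicle on the AhR-poor diet, 20.6 to 29.6 with papain on the I3C diet and 51.8 to 289.5 with papain on the AhR-poor diet. Of these markers, Ly6g was at or under 3 counts in every library of all groups but AhR-poor with papain. For 9 dermal fibroblast markers the sums were 10.1 to 13.5, 101.7 to 182.6, 2.26 to 11.9 and 270.5 to 695.5 CPM in the same order, and for 10 monocyte and macrophage markers they were 20.2 to 29.3, 53.8 to 64.6, 13.1 to 45.4 and 129.7 to 575.7 CPM. The sums of 6 mast cell markers were 1.47 to 1.92, 3.70 to 7.52, 1.94 to 9.43 and 31.7 to 266.7 CPM, with Cpa3, Tpsb2 and Ms4a2 at or under 3 counts in every library of both I3C groups. Those of 5 Langerhans cell markers were 152.4 to 380.9, 616.2 to 693.4, 157.3 to 492.1 and 595.8 to 767.2 CPM. For 8 endothelial markers they were 0.948 to 3.52, 14.5 to 38.4, 1.085 to 2.58 and 24.7 to 60.6 CPM. For 6 T cell markers they were 14.3 to 20.9, 18.9 to 31.96, 10.6 to 32.5 and 22.3 to 59.3 CPM. In such mixed material, a change in the number of cells of a type and a change in RNA per cell cannot be told apart.

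The promoters of the 3 members that differed between diets after papain are shown so that the letters at each start site can be read beside the values. They are RefSeq windows of GRCm38.p6, from 250 bases before to 50 bases after a start site, written 5′ to 3′ on the strand of the gene: Il1b at chr2:129371090-129371389 (minus strand), the upstream of the 3 start sites of Il1rn at chr2:24336610-24336909 (plus strand) and Il1r2 at chr1:40085843-40086142 (plus strand). Capitals mark matches, on either strand, to GGANTTTCC (NF-kB core), TGANTCA (AP-1), GCGTG (AhR core) or TTGCNNAA (C/EBP).
Il1b: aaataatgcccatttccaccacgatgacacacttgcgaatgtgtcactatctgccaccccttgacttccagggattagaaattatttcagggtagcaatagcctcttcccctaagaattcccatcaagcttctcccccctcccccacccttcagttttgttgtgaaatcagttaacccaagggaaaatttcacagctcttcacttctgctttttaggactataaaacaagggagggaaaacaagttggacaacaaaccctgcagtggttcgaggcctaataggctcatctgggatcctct
Il1rn: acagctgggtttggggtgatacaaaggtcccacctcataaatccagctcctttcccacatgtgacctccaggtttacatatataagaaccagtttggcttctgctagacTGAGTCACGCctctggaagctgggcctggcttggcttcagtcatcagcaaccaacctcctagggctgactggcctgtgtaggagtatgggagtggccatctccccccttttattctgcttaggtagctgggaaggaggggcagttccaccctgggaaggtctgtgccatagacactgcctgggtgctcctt
Il1r2: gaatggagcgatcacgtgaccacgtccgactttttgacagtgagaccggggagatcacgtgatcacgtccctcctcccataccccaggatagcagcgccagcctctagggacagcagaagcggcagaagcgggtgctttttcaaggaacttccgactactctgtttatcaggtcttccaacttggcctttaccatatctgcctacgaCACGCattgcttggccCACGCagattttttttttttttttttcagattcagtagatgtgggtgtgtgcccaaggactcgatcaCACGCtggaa
The window of Il1b held no match to any of the 4 motifs. The window of Il1rn held an AP-1 match that begins at -141 from the start site and an AhR core match on the other strand that begins at -136, and the matches overlap. The window of Il1r2 held 3 AhR core matches, beginning at -43, -27 and 41. It was the sole window found for Il1r2 and lies inside the gene as annotated for the counts, which begins upstream at 40074079. The letters at that upstream start are not shown. Windows were found for 9 of the 10 members (13 windows in all), with none found for Il1f6. The AhR core was in 5 of the 13 windows, from 4 genes (Il1r2, Il1r1, Il1rn and Il1rap), and in 32.4% of all 32851 windows of the same length. AP-1 letters were in 3 windows (Il1a, Il1rn and Il1f8) against 7.81% of all windows, C/EBP letters in 2 (Il1r1 and Il1f5) against 10.8%, and NF-kB letters in none against 1.25%. A match is a stretch of letters and was not tested as a binding site.

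Il1b was the member that moved furthest. With vehicle on the I3C diet it measured 0.14, 0.46, 0.19 and 0.72 CPM (libraries T108, T109, T110 and T111), which were 5 to 24 counts. With vehicle on the AhR-poor diet it measured 2.23, 1.99, 2.87 and 3.19 CPM (T100 to T103). After papain it measured 14.96, 4.68, 2.94 and 2.01 CPM on the I3C diet (T106, T113, T114 and T115) and 223.1, 430.8, 219.9 and 59.7 CPM on the AhR-poor diet (T104, T105, T107 and T112). The 4 AhR-poor libraries with papain lay above every other library, and library T106 was the highest of the remaining 12.

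After papain, Il1b was higher in the AhR-poor than in the I3C group by a log2 fold change of 5.23 (SE 0.69, 95% interval 3.75 to 6.72, edgeR adjusted p = 0.000136). Without library T106 the value was 6.21. Papain raised Il1b on the AhR-poor diet by 6.5 (SE 0.74, edgeR adjusted p = 2.01e-05) and on the I3C diet by 4.04 (SE 0.93, edgeR adjusted p = 0.00381). The rise on the I3C diet missed the threshold without T108, T109, T110 or T106, with adjusted p-values up to 0.0158, and without T106 it was 3.06. The responses on both diets differed by 2.47 (95% interval -0.58 to 5.51), which did not pass (edgeR adjusted p = 0.474). With vehicle the groups did not overlap, at a log2 fold change of 2.77 (SE 1.01), but the edgeR adjusted p was 0.233. In that comparison DESeq2 called Il1b (adjusted p = 0.00400), as did edgeR on those 8 libraries alone (adjusted p = 0.000882).

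Il1a was called after papain on the AhR-poor diet alone. It measured 13.84, 4.16, 3.62 and 4.56 CPM with vehicle on the I3C diet and 5.42, 2.09, 3.24 and 4.85 CPM with vehicle on the AhR-poor diet. With papain it measured 7.26, 12.67, 7.11 and 8.60 CPM on the I3C diet and 18.07, 32.93, 20.56 and 7.86 CPM on the AhR-poor diet. Library T108 of the I3C vehicle group stood well above the other 3, and above the papain libraries of the same diet. Papain raised Il1a on the AhR-poor diet by a log2 fold change of 2.35 (SE 0.51, edgeR adjusted p = 0.00247), with no overlap of the groups. For the I3C diet it was 0.44 (95% interval -0.60 to 1.49), or 1.11 without T108 (edgeR adjusted p = 0.0586), and neither was called. Between diets after papain it was 1.16 (SE 0.48, edgeR adjusted p = 0.109), with the groups overlapping at T112.

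The antagonist Il1rn was abundant in every library. It measured 59.18, 41.45, 55.52 and 37.64 CPM with vehicle on the I3C diet and 44.41, 45.93, 52.00 and 59.43 CPM with vehicle on the AhR-poor diet. Papain libraries measured 42.89, 25.59, 20.32 and 26.98 CPM on the I3C diet and 107.9, 176.1, 83.53 and 49.63 CPM on the AhR-poor diet. So the vehicle groups covered the same range, while the papain groups did not overlap each other and each overlapped with vehicle by 1 library. After papain the diets differed by a log2 fold change of 1.85 (SE 0.33, edgeR adjusted p = 0.00145). Neither response to papain was called by itself in the edgeR model, at 1.05 on the AhR-poor diet (SE 0.33, edgeR adjusted p = 0.0233) and -0.74 on the I3C diet (SE 0.33, edgeR adjusted p = 0.0985). The value on the AhR-poor diet rested on single libraries, since it was 1.28 and called without T112 (adjusted p = 0.00261) and 0.67 without T105. DESeq2 called it at 1.08 (adjusted p = 0.000768), and so did edgeR with the filterByExpr filter (adjusted p = 0.00980) or with at least 10 counts in every library (adjusted p = 0.00805). Counts per gene do not separate the transcripts of the 3 Il1rn start sites.

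**Figure D1:**
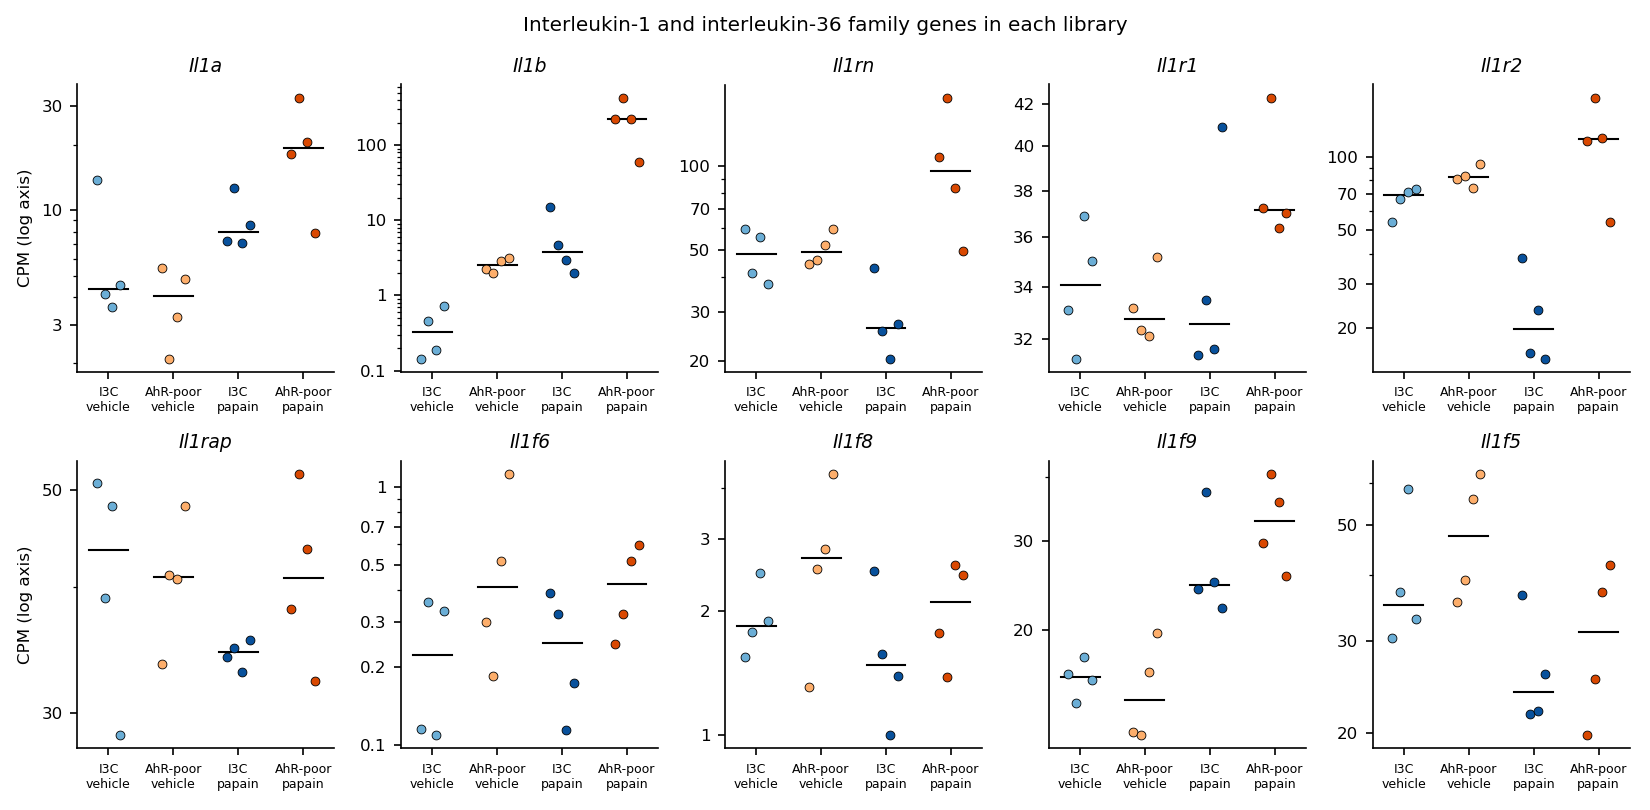
CPM of each member (log axis) in the 16 libraries, with 1 point per library, 4 libraries per group and a line at the group median. Il1b in the AhR-poor papain group (59.7 to 430.8 CPM) lies above all other libraries, and Il1r2 in the I3C papain group (14.9 to 38.5 CPM) lies below all others.

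The decoy receptor Il1r2 fell with papain on the I3C diet and stood higher after papain in mice fed the AhR-poor diet. With vehicle it measured 54.01, 67.18, 71.79 and 73.99 CPM on the I3C diet and 80.61, 83.55, 74.33 and 93.60 CPM on the AhR-poor diet, so that the groups lay close together without overlap. With papain it measured 38.48, 15.81, 23.61 and 14.92 CPM on the I3C diet, all under the vehicle libraries. On the AhR-poor diet with papain it measured 116.2, 174.1, 119.2 and 54.20 CPM, with 3 libraries above the vehicle range and T112 under it. The fall on the I3C diet had a log2 fold change of -1.52 (SE 0.33, edgeR adjusted p = 0.00252) and narrowly missed the threshold without T113 (adjusted p = 0.0102). The change on the AhR-poor diet was 0.48 (95% interval -0.21 to 1.18, edgeR adjusted p = 0.285). Between diets after papain, Il1r2 was higher on the AhR-poor diet by 2.32 (SE 0.34, edgeR adjusted p = 0.000284), and with vehicle the log2 fold change was 0.31 (95% interval -0.38 to 1.01). The difference between the responses was 2.0 (SE 0.46), with an unadjusted p of 0.000762 and an edgeR adjusted p of 0.0862, so it was not called over all genes. Without T112 it was called, at 2.24 (edgeR adjusted p = 0.00893), and DESeq2 called it with all libraries at 2.03 (adjusted p = 0.000248).

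The signalling chains Il1r1 and Il1rap were not called in any comparison. Il1r1 ranged from 31.28 to 36.89 CPM (I3C, vehicle), 32.12 to 35.19 CPM (AhR-poor, vehicle), 31.42 to 40.91 CPM (I3C, papain) and 36.40 to 42.32 CPM (AhR-poor, papain). Its largest log2 fold change was 0.20 (95% interval 0.02 to 0.39), after papain on the AhR-poor diet, where the groups did not overlap and the edgeR adjusted p was 0.0780. Il1rap, the accessory chain of both receptors, measured 28.48 to 50.77, 33.56 to 48.25, 32.94 to 35.41 and 32.23 to 51.86 CPM in the same order of groups, which overlapped in every comparison. Its log2 fold changes between groups lay between -0.28 and 0.27, and the difference between its responses was 0.30 (95% interval -0.20 to 0.79). The interleukin-36 receptor Il1rl2, which is no member of the 10, measured 89.2 ± 4.65, 83.1 ± 8.85, 103.8 ± 9.06 and 82.2 ± 5.05 CPM (SD, n = 4 each), and was not called in any comparison. After papain its log2 fold change between diets was -0.34 (SE 0.08, edgeR adjusted p = 0.00683), short of the fold threshold.

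Among the interleukin-36 genes, the agonist Il1f9 alone was called, and this was after papain on the AhR-poor diet. Il1f9 measured 16.37, 14.35, 17.66 and 15.94 CPM with vehicle and 24.04, 37.39, 24.92 and 22.13 CPM with papain on the I3C diet. On the AhR-poor diet it measured 12.59, 12.39, 16.54 and 19.69 CPM with vehicle and 29.74, 40.61, 35.84 and 25.59 CPM with papain. All 8 papain libraries were above all 8 vehicle libraries. The log2 fold change was 1.11 on the AhR-poor diet (SE 0.18, edgeR adjusted p = 0.000174), and 0.99 without T105, which is under the fold threshold. With the I3C diet it was 0.75 (SE 0.18, edgeR adjusted p = 0.00362), past the p threshold but under the fold threshold. The diets did not separate Il1f9, at 0.28 with papain (95% interval -0.10 to 0.66) and -0.07 with vehicle (95% interval -0.46 to 0.32).

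The other interleukin-36 genes were not called in any comparison. Il1f8 measured 0.999 to 4.32 CPM over the 16 libraries, with log2 fold changes between -0.44 and 0.51. Il1f6 was close to the limit of detection, at 0.11 to 1.13 CPM, and its highest value was in library T103 of the AhR-poor vehicle group. Its log2 fold change between diets with vehicle was 1.21 with a 95% interval of 0.07 to 2.35 (edgeR adjusted p = 0.353), so at this depth differences of several fold were within the error. The antagonist Il1f5 measured 30.41, 37.20, 58.54 and 33.05 CPM with vehicle on the I3C diet and 35.52, 39.21, 56.10 and 62.54 CPM with vehicle on the AhR-poor diet. With papain it measured 36.68, 21.71, 22.04 and 25.86 CPM on the I3C diet and 19.77, 25.34, 37.13 and 41.80 CPM on the AhR-poor diet. Most papain libraries were lower, with log2 fold changes of -0.64 (95% interval -1.25 to -0.04) and -0.58 (95% interval -1.19 to 0.03) on the AhR-poor and I3C diets, but the groups overlapped and the edgeR adjusted p-values were 0.0979 and 0.133.

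**Figure D2:**
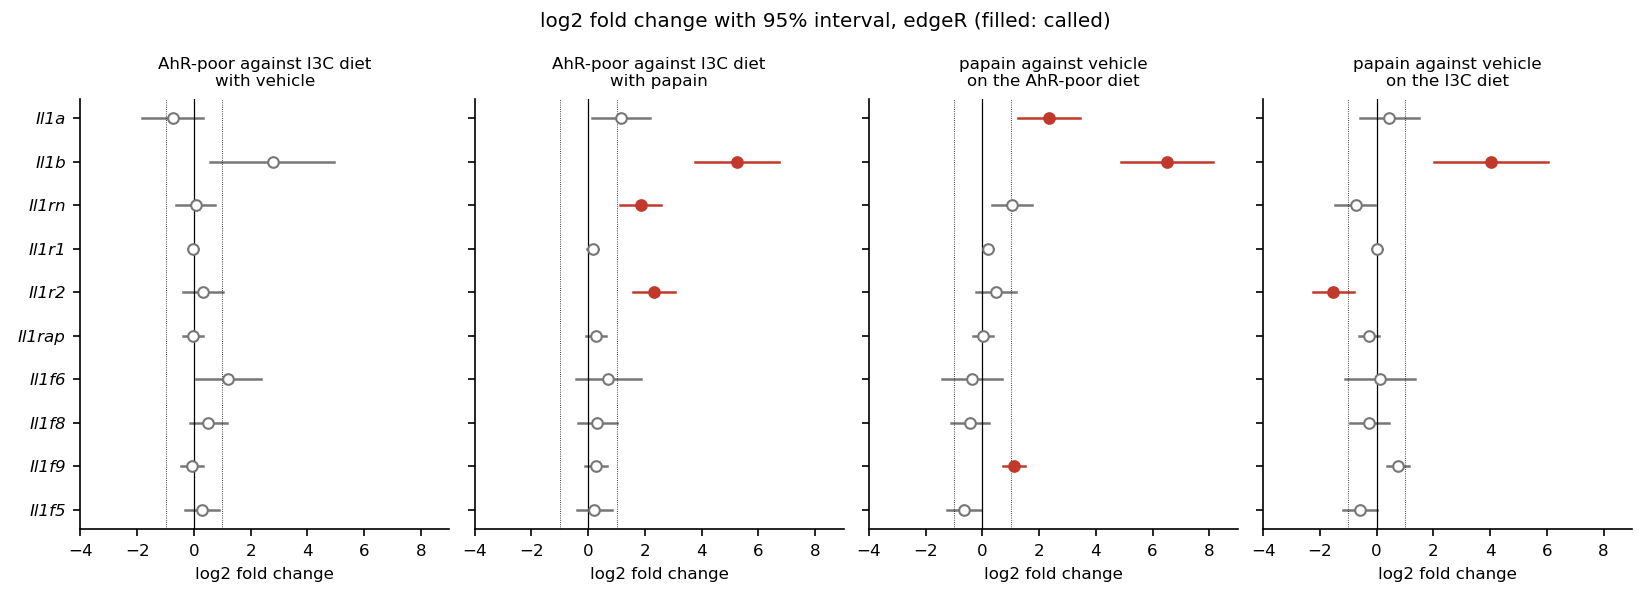
log2 fold change of each member in the 4 comparisons with its 95% interval from the edgeR model (16 libraries, 4 per group). Filled red points are called, open points are not, and dotted lines mark a log2 fold change of 1 in either direction. Il1b stands at 5.23 between diets after papain, while Il1r1 and Il1rap stay within 0.28 of 0 in all 4 comparisons.

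Between diets, members were called after papain and none after vehicle in the edgeR model. With vehicle, edgeR called 0 of the 10 members, with 2 at an unadjusted p below 0.05 and 1 called by DESeq2, and 1.59% of all genes tested were called higher on the AhR-poor diet. With papain, 3 of 10 members were called higher (Il1b, Il1rn and Il1r2) and 0 lower, against 7.15% and 0.0993% of all genes. Their median log2 fold change was 0.17 with vehicle and 0.52 with papain, and that of all genes was -0.01 and 0.01. When only the 8 papain libraries were fitted, Il1b alone was called, and Il1r2 (adjusted p = 0.0112) and Il1rn (adjusted p = 0.0198) were not. Groups did not overlap for 2 members with vehicle (Il1b and Il1r2) and for 3 with papain (Il1b, Il1rn and Il1r2), all higher on the AhR-poor diet, against 6.45% and 12.5% of all genes.

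With papain against vehicle, 3 of 10 members were called higher on the AhR-poor diet (Il1a, Il1b and Il1f9) and 0 lower, where 6.04% of all genes were called higher and 2.42% lower. DESeq2 called 4 there, with Il1rn in addition. On the I3C diet 1 was called higher (Il1b) and 1 lower (Il1r2), against 3.69% and 5.29% of all genes. The members' median log2 fold change was 0.34 on the AhR-poor diet and -0.12 on the I3C diet, beside -0.00 and -0.04 for all genes. The groups did not overlap for 4 members on the AhR-poor diet, all higher (17.0% of all genes), and for 3 on the I3C diet, 2 higher (16.2%) and 1 lower (17.3%). These comparisons and those between diets share libraries, so their values are not independent of each other. For the difference between the 2 responses, edgeR called 0 of 10 members, with 3 at an unadjusted p below 0.05 (Il1a, Il1rn and Il1r2) and 2 called by DESeq2 (Il1rn and Il1r2), and it called 0.0181% of all genes. With scaling by library size alone, the median of all genes between diets after papain moved by 0.11, and Il1b, Il1rn and Il1r2 remained called there.

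Levels can be compared between genes only per length, as CPM per kb of exon, with all annotated exons of a gene merged. With vehicle the decoy Il1r2 had the highest level of the members, at 34.98 ± 4.69 (SD, n = 4) CPM per kb on the I3C diet and 43.51 ± 4.21 (SD, n = 4) on the AhR-poor diet, above all others in every library. Il1f9, Il1f5 and Il1rn followed at 8.75 to 10.76 CPM per kb and overlapped with their neighbours in the order. Il1r1 came next at 5.35 ± 0.38 and 5.22 ± 0.22 (SD, n = 4), and Il1rap, Il1a and Il1f8 lay between 1.58 and 3.66. Il1b and Il1f6 were the lowest on both diets and overlapped each other, at 0.20 and 0.26 CPM per kb on the I3C diet and 1.35 and 0.60 on the AhR-poor diet. With papain on the I3C diet, Il1f9 (16.46 ± 4.22, SD, n = 4) and Il1r2 (12.16 ± 5.72, SD, n = 4) were at the top, with overlapping libraries. With papain on the AhR-poor diet, Il1b went from near the bottom to the top, at 122.4 ± 79.8 (SD, n = 4) CPM per kb, followed by Il1r2 at 60.76 ± 25.69 (SD, n = 4), whose libraries overlapped with it. Il1f9, Il1rn and Il1a came next at 19.99, 18.85 and 10.06 CPM per kb.

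The ratio of an antagonist to its agonists within a library does not depend on the scaling of the library, and is given as a description. The ratio of Il1rn to the sum of Il1a and Il1b was 4.23 to 14.6 with vehicle on the I3C diet and 5.80 to 11.3 on the AhR-poor diet. With papain it was 1.48 to 2.54 on the I3C diet and 0.347 to 0.734 on the AhR-poor diet. These ratios are of CPM, which also carries the length of each gene, so only their change between groups can be read. With each gene taken per kb of exon, the ratio of Il1rn to both agonists was 1.51 to 5.19 and 2.05 to 3.95 with vehicle, and 0.521 to 0.900 and 0.120 to 0.254 with papain on the I3C and AhR-poor diets. The lengths merge all annotated exons of a gene, at 5535 bases for Il1rn, 1974 for Il1a and 1907 for Il1b. Shorter transcripts of Il1rn in use would raise the ratio, so the side of 1 on which it falls was not settled on the I3C diet. The ratio of the decoy Il1r2 to Il1r1 was 1.63 to 2.15 and 2.31 to 2.66 with vehicle. With papain it was 0.365 to 1.23 on the I3C diet and 1.46 to 4.12 on the AhR-poor diet. The ratio of Il1f5 to the 3 interleukin-36 agonists was 1.69 to 2.89 and 2.49 to 2.82 with vehicle, and 0.553 to 1.36 and 0.599 to 1.46 with papain on the I3C and AhR-poor diets. So papain libraries were lower than vehicle libraries on both diets for the first and the last ratio, and only on the I3C diet for the ratio of the receptors. The ratio of Il1b to Il1a, added after the values were seen, was 0.0104 to 0.158 and 0.412 to 0.949 with vehicle, and 0.234 to 2.06 and 7.60 to 13.1 with papain.

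**Figure D3:**
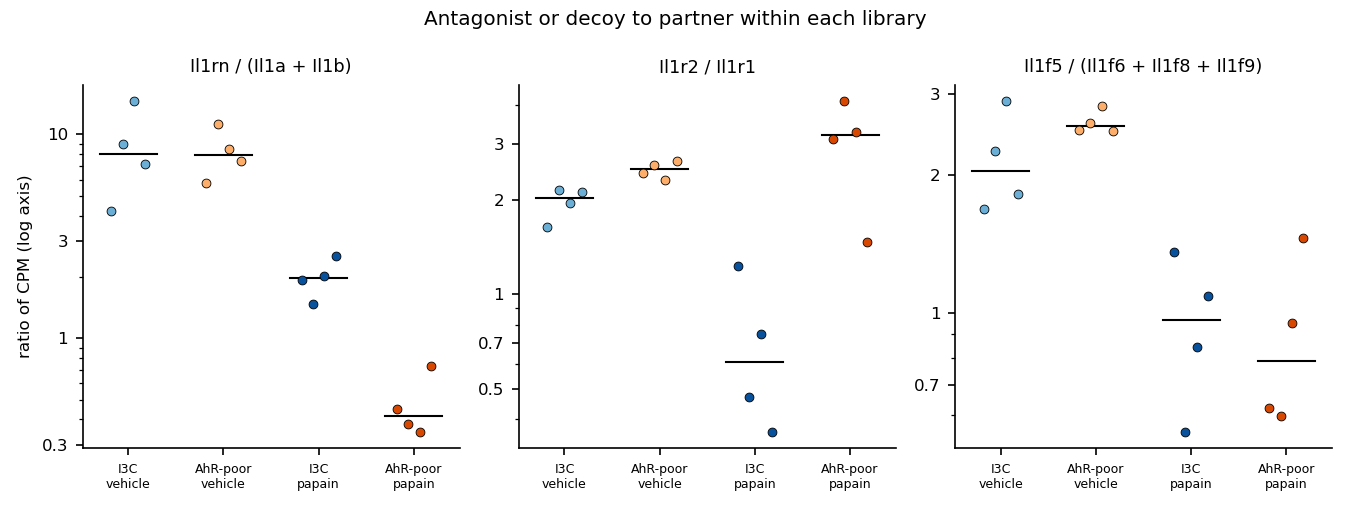
Ratio of CPM within each library (log axis) for Il1rn to the sum of Il1a and Il1b, for Il1r2 to Il1r1 and for Il1f5 to the sum of Il1f6, Il1f8 and Il1f9, with 1 point per library, 4 per group and a line at the group median. The first ratio is lowest in the AhR-poor papain group (0.347 to 0.734), next lowest in the I3C papain group (1.48 to 2.54) and higher in both vehicle groups.

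Within the AhR-poor papain group, library T105 was the highest and T112 the lowest for Il1a, Il1b, Il1rn, Il1r2, Il1f9 and Il1rap. For Il1r1 T105 was highest, but T112 was highest for Il1f5 and Il1f6, and T107 for Il1f8. T105 was also highest and T112 lowest for the summed neutrophil (289.5 and 51.8 CPM) and monocyte and macrophage markers (575.7 and 129.7 CPM). So they were for the mast cell (266.7 and 31.7 CPM) and fibroblast markers (695.5 and 270.5 CPM). This also held for the T cell sum (59.3 and 22.3 CPM), but not for every list. The Langerhans cell sum was highest in T104 (767.2 CPM, with 676.2 CPM in T105). The endothelial sum was lowest in T107 (24.7 CPM, with 34.5 CPM in T112). The keratinocyte sum was highest in T112 and lowest in T104. In the I3C papain group, T106 was highest for Il1b, Il1rn, Il1r2, Il1f5, Il1f6 and Il1f8. Il1a and Il1f9 were highest in T113, and Il1r1 and Il1rap in T115. T106 was also highest for the monocyte and macrophage (45.4 CPM), mast cell (9.43 CPM) and fibroblast sums (11.9 CPM). The same held for the Langerhans cell (492.1 CPM), T cell (32.5 CPM) and endothelial sums (2.58 CPM). The neutrophil sum was highest in T114 (29.6 CPM) and the keratinocyte sum in T115. Of the 10 neutrophil markers, 7 were called higher between diets after papain, against 7.15% of all genes. So were all 10 monocyte and macrophage markers, 5 of 6 mast cell markers, all 9 fibroblast markers and all 8 endothelial markers. Of Langerhans cell markers 1 of 5 was called higher, of T cell markers 1 of 6 and of keratinocyte markers 0 of 10. With vehicle, all 9 fibroblast and all 8 endothelial markers were called higher, against 1.59% of all genes. So were 4 of 10 monocyte and macrophage markers and 1 of 6 mast cell markers. The part of these cells in the differences of Il1b, Il1rn and Il1r2 was not tested. Ratios of Il1b to the marker sums were also added after the values were seen. Per unit of neutrophil marker, Il1b stood at 0.200 to 0.750 and 0.682 to 1.11 with vehicle, 0.0792 to 0.537 with papain on the I3C diet and 1.15 to 1.49 with papain on the AhR-poor diet. Every neutrophil marker but Cxcr2 was at or under 3 counts in all I3C vehicle libraries, as were Ly6g, Camp, Ngp and Ltf in all I3C papain libraries. The neutrophil sum was thus near the limit of detection in the former and rested on different genes between groups. Per unit of monocyte and macrophage marker Il1b was 0.151 to 0.329 and 0.460 to 0.769 with papain on the I3C and AhR-poor diets. The papain groups did not overlap in these ratios. They did per unit of mast cell marker (1.04 to 1.59 and 1.56 to 1.88), where most AhR-poor libraries were the higher ones. They also overlapped per unit of fibroblast marker (0.596 to 1.30 and 0.221 to 0.619), where most AhR-poor libraries were the lower ones. The mast cell markers Cpa3, Tpsb2 and Ms4a2 were at or under 3 counts in all I3C papain libraries. So were the fibroblast markers Pdgfrb and Mfap5, and the sums of both lists thus also rested on different genes between the papain groups.

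**Figure D4:**
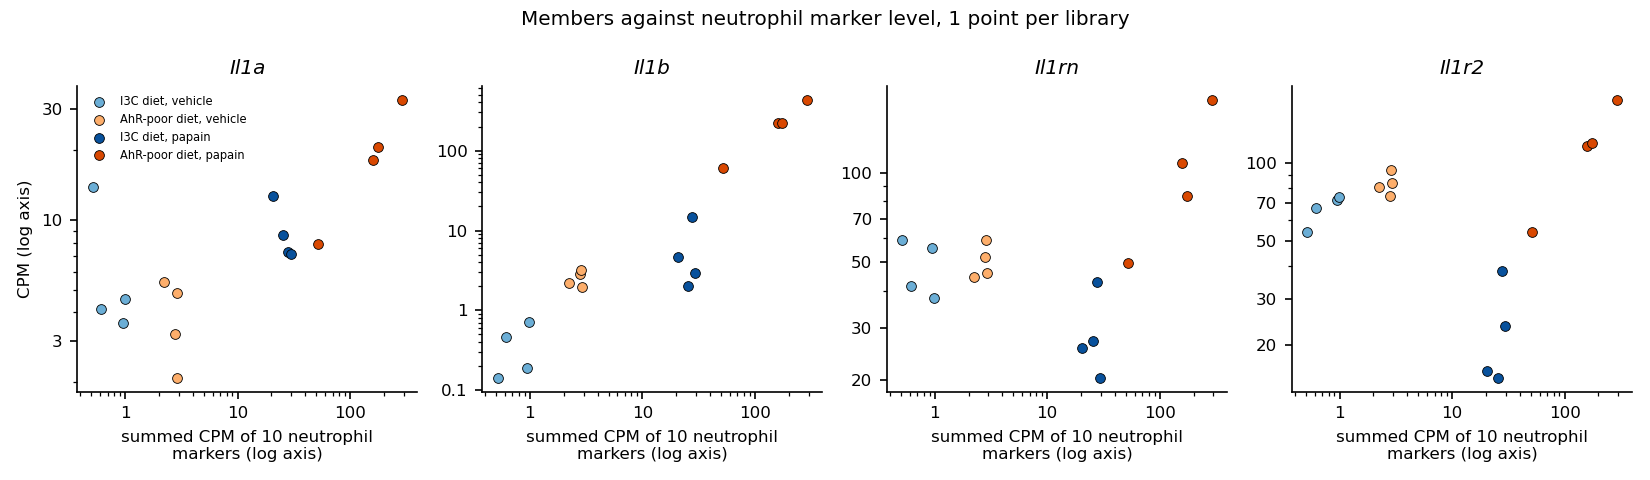
CPM of Il1a, Il1b, Il1rn and Il1r2 against the summed CPM of 10 neutrophil markers (both axes log), with 1 point per library and groups by colour. Il1b was highest where the markers were highest (T105, 430.8 CPM at a marker sum of 289.5 CPM), while Il1r2 was lowest in the 4 I3C papain libraries and Il1rn in 3 of them, at marker sums of 20.6 to 29.6 CPM for that group.

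For each member called in a comparison, the genes with the most similar pattern were sought among 13015 genes with a mean of at least 1 CPM, by Pearson r of log2 CPM over the 16 libraries. The libraries fall into 4 groups and share their depth scaling, so r is a description and is followed by its value after the group means were removed. For Il1b these were Clec4e, a lectin receptor of myeloid cells (r = 0.988, then 0.911), Ctsz (r = 0.986, then 0.871) and Cyp4f18 (r = 0.986, then 0.924). For Il1a they were Stx11 (r = 0.960, then 0.926), Vps37b (r = 0.928, then 0.891) and Pdlim7 (r = 0.926, then 0.819). For Il1rn they were Rab44, Fcgr3 and Arg2, with r between 0.944 and 0.949, then 0.893, 0.882 and 0.878. For Il1r2 they were Slc43a2, Arg2 and Mxra8, with r between 0.953 and 0.958, then 0.816, 0.898 and 0.820. Arg2, the mitochondrial arginase, was therefore near both. For Il1f9 they were Sema4d (r = 0.936, then 0.740), the kallikrein Klk6 (r = 0.929, then 0.759) and the integrin Itga5 (r = 0.926, then 0.609).

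Of 11 other ligands, receptors and binding proteins, 9 were tested. Between diets after papain 3 of them were called higher and 0 lower (list median log2 fold change 0.04), against 7.15% and 0.0993% of all genes. Il1rl1, the receptor of interleukin-33, measured 15.9 to 53.2 CPM with papain on the AhR-poor diet and 0.0249 to 0.317 CPM on the I3C diet (log2 fold change 7.55, SE 0.49, edgeR adjusted p = 2.08e-07). It is also carried by mast cells, whose markers were higher in the same libraries. Il18rap, a chain of the interleukin-18 receptor, was higher by 2.47 (SE 0.35), and Il18 by 1.28 (SE 0.27). After papain 5 of the 9 were called higher on the AhR-poor diet (list median 1.24), against 6.04% of all genes. The largest were Il1rl1 (6.93, SE 0.46), Il18rap (3.06, SE 0.37) and Il18r1 (2.14, SE 0.20). In I3C-fed mice 2 were called higher (list median 0.73), against 3.69% of all genes. They were Il18r1 (2.75, SE 0.20) and the binding protein Il18bp (1.46, SE 0.24). With vehicle edgeR called 0 between diets (list median 0.30). The ligand Il33 was not called in any comparison, at 15.03 to 36.15 CPM over the 16 libraries.

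Of 17 genes for processing and release of the ligands, 15 were tested. Between diets after papain 5 were called higher and 0 lower (list median log2 fold change 1.03), against 7.15% and 0.0993% of all genes. The largest were the mast cell chymase Cma1, at least 44.6-fold higher against 3 counts per library, the inflammasome sensor Nlrp3 (3.99, SE 0.57, edgeR adjusted p = 0.000276) and cathepsin S, Ctss, which can process interleukin-36γ (2.75, SE 0.39). Nlrp3 measured 28.9 to 197.7 CPM with papain on the AhR-poor diet and 3.63 to 11.5 CPM on the I3C diet, and was 7.06 to 18.4 and 2.61 to 6.09 CPM with vehicle. After papain 4 were called higher on the AhR-poor diet (list median 0.34), against 6.04% of all genes. Among the 4 were Nlrp3 (3.16, SE 0.55), Cma1 (3.16, SE 0.49) and Ctss (1.61, SE 0.37). On the I3C diet (list median 0.06) the calpain subunit Capn2 was called higher (1.16, SE 0.09) and proteinase 3, Prtn3, lower (-1.71, SE 0.49), the latter at 1 to 12 counts a library. Of all genes, 3.69% were called higher there and 5.29% lower. On the AhR-poor diet the log2 fold change of Capn2 was 0.99 (SE 0.09, edgeR adjusted p = 1.51e-07), just under the fold threshold. The caspase Casp1 also passed the p threshold alone and was lower after papain on both diets. It was at -0.46 on the AhR-poor diet (SE 0.08, edgeR adjusted p = 0.000218) and -0.45 on the I3C diet (SE 0.08, edgeR adjusted p = 0.000216). S100a13 was lower in this way on the I3C diet (-0.46, SE 0.13, edgeR adjusted p = 0.00816). With vehicle edgeR called 0 of the 15 between diets (list median 0.11).

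Of 19 genes for signalling and feedback below the receptors, such as Myd88, the IRAK kinases and Traf6, edgeR called 0 between diets with vehicle (list median -0.02) or papain (-0.16) and 0 after papain on the AhR-poor diet (0.04). The kinase Irak4 alone was called on the I3C diet (list median -0.02), where papain took it from 17.95 to 23.81 CPM with vehicle to 42.0 to 51.2 CPM (log2 fold change 1.12, SE 0.10, edgeR adjusted p = 5.79e-08). On the AhR-poor diet its log2 fold change was 0.82 (SE 0.10, edgeR adjusted p = 4.11e-06), under the fold threshold. Other genes also passed the p threshold alone. Between diets after papain these were Irak3 (0.67, SE 0.16), Chuk (-0.25, SE 0.06) and Ikbkg (-0.29, SE 0.07). After papain on the AhR-poor diet, Irak2 (0.92, SE 0.17) and Myd88 (0.49, SE 0.13) were higher. Traf6 (-0.48, SE 0.13), Tollip (-0.29, SE 0.08), Tab1 (-0.28, SE 0.08) and Tab2 (-0.31, SE 0.08) were lower there. On the I3C diet Chuk was higher (0.39, SE 0.06).

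The last list held 19 genes chosen from those that interleukin-1 or interleukin-36 is known to induce in keratinocytes, and all 19 were tested. Like the other lists, it was chosen with earlier results of these data known, so its counts of called genes are a description. After papain 15 of the 19 were called higher on the AhR-poor diet (list median 3.26), against 6.04% of all genes. On the I3C diet 9 were called higher (list median 1.15), against 3.69%, and 0 were lower on either diet. Between diets, 10 were called higher after papain (list median 1.29), against 7.15% of all genes. With vehicle 0 were called, where the list median was 0.58, or 0.34 with genes at the limit of detection set to their bound. The neutrophil-attracting chemokine Cxcl5 measured 9.16 to 30.4 CPM with papain on the AhR-poor diet and 0 to 6 counts on the I3C diet (log2 fold change 8.66, SE 0.60), and on the AhR-poor diet it was at least 259.2-fold above vehicle. Cxcl3 (5.86, SE 0.58) and Csf3, the growth factor of neutrophils (5.34, SE 0.54), were the next largest between diets. Papain raised Cxcl3 (7.35, SE 0.66) and S100a9 (6.74, SE 0.63) on the AhR-poor diet. On the I3C diet the largest rises with counts in the vehicle libraries were in S100a8 (6.43, SE 0.86), the beta-defensin Defb14 (6.05, SE 0.53), the iron-sequestering lipocalin Lcn2 (5.88, SE 0.29) and S100a9 (5.70, SE 0.74). The beta-defensin Defb4 was also called, at a mean of 0.308 CPM, which is at least 3.68-fold above vehicle libraries with no count. S100a8 and S100a9 are also abundant in neutrophils. In the difference between the responses, 0 genes of any of the 4 lists were called by edgeR.

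**Figure D5:**
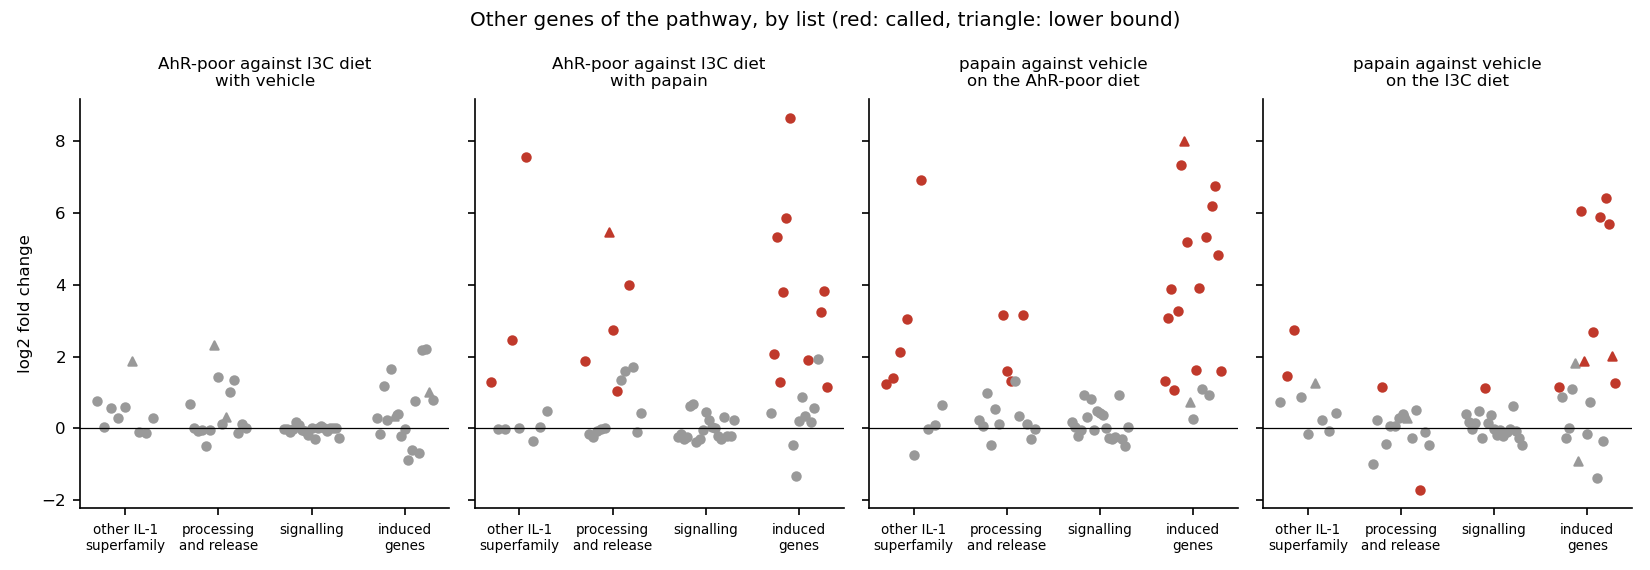
log2 fold change of the tested genes of the 4 pathway lists in each comparison, with 1 symbol per gene. Red symbols are called, grey are not, triangles are lower bounds where the lower group was at or under 3 counts in every library, and genes at that limit in both groups are left out. The signalling genes have list medians of -0.16 to 0.04, with Irak4 (1.12 after papain on the I3C diet) the sole called gene. The induced genes are called 15 times on the AhR-poor diet and 9 times on the I3C diet after papain.

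Some exons of members are shared with genes on the other strand, and whether counting used the strand is not given in the sources used here. Il1a shares 222 exonic bases with Gm14023, which measured 1.45 to 2.53 CPM over all libraries, against 2.09 to 32.93 CPM for Il1a. Il1b shares 25 bases with Il1bos, which measured 0.653 to 4.29 CPM with papain on the AhR-poor diet and up to 0.654 CPM in the other groups. Il1rap shares 552 bases with Gm20319, at no more than 0.0574 CPM.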

How the data were processed

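Libraries were prepared with the TruSeq Stranded mRNA kit, sequenced as paired 100-nt reads and aligned by the authors with STAR to mm10. The authors deposited whole-number counts of reads per Ensembl gene without normalization. The counting tool, annotation release and strand setting are not given in the sources used here. Symbols, positions and exon lengths come from GENCODE M21 (50376 of 50600 identifiers matched).

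Groups were taken from the sample labels. Each library is from a separate mouse. The methods name 3 sequencing units without assigning libraries to them, so no batch was fitted. Genes reaching 10 counts in total were fitted in edgeR 4.0.16 (R 4.3.3) with TMM factors, 1 mean per group over all 16 libraries and robust quasi-likelihood tests, in place of the DESeq2 of the study, with its thresholds. The interaction is the response to papain on the AhR-poor diet minus that on the I3C diet. Within a pathway list, up to 3 called genes with the largest change were named per comparison, and Il1rl2 was followed throughout. Il33, Irak4 on the AhR-poor diet, and Lcn2 and S100a9 on the I3C diet were added after their values were seen. So were the signalling and processing genes that passed the p threshold alone. Similar genes were the 3 with the highest r. A fold against a group with at most 3 counts in every library is a lower bound at 3 counts per library.

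Other settings tried were DESeq2 1.42.0, scaling by RLE or by library size only, 3 other filters (filterByExpr, 10 counts in each library, any gene counted), a fit of only the libraries compared, other thresholds, and omission of each library in turn. The code was tested on simulated counts. The members and lists were chosen with earlier results of these data known. The explants and public data sets were left out.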

Additional observations from a re-analysis of the deposited data

Results flagged for a closer look

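Of the 40 combinations of member and group, 2 held a library whose gap to the nearest other library was large for a group of 4 by Dixon's test at the 95% level. Chance flags about 1 in 20 such groups. Il1a measured 13.84 CPM in library T108 of the I3C vehicle group, where the other 3 libraries measured 3.62 to 4.56 CPM. Without T108 the log2 fold change of Il1a between diets with vehicle was -0.08, in place of -0.74. Il1r1 measured 42.32 CPM in library T105 of the AhR-poor papain group, where the others measured 36.40 to 37.25 CPM. T105 was also the highest library of that group for Il1a, Il1b, Il1rn, Il1r2, Il1f9 and Il1rap. The cause of either value was not tested.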

How the results depend on the processing

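No paired analysis was possible because no replicate code occurs in more than 1 group. Of 1230 log2 fold changes recomputed for single members, 1179 kept their direction and their side of the thresholds, 11 passed in addition, 8 no longer passed and 32 turned direction. With vehicle, DESeq2 and the fit of only the libraries compared each called 1 member between diets (Il1b) in place of 0. With papain, the fit of only the libraries compared called 1 member between diets in place of 3. On the I3C diet, a minimum of 10 counts in every library left 1 member called in place of 2, since Il1b was no longer tested, and leaving out each library gave 1 to 2. For the interaction, DESeq2 called 2 members in place of 0, and leaving out each library gave 0 to 1. The values that turned direction were those of uncalled members, at -0.50 (Il1f6 in the interaction) to 0.13 as reported. With scaling by library size only, the log2 fold change between diets with vehicle was 0.01 for Il1r1 and 0.02 for Il1rap, and that of Il1r1 after papain on the I3C diet was -0.04. Leaving out each library gave, between diets with vehicle, -0.04 to 0.17 for Il1rn, -0.22 to 0.01 for Il1f9 and -0.16 to 0.09 for Il1rap. On the AhR-poor diet the response to papain was -0.65 to 0.30 for Il1f6 and -0.11 to 0.12 for Il1rap, and on the I3C diet it was -0.20 to 0.44 for Il1f6 and -0.08 to 0.05 for Il1r1. The interaction was -0.80 to 0.17 for Il1f6, -0.42 to 0.12 for Il1f8 and -0.29 to 0.15 for Il1f5. The cause was not tested. Il1f6 at 4 to 42 counts and Il1b in the I3C vehicle libraries at 5 to 24 counts were limited by depth.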
